A study of Drosophila melanogaster with 2 samples.

Results

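At sbb, jing and zfh2, genes of zinc finger proteins that act in embryonic patterning, ChIP-seq of the fork head protein fd102C placed 18 of the 2031 peaks that passed the authors' reproducibility threshold. The 3 genes, of 13945 protein-coding genes, were selected on the peak values of these data, which gave the highest sbb and zfh2 summits ranks 5 and 4 by signal and sbb and jing 8 and 9 thresholded summits. All 3 held a summit inside the gene widened by 5 kb on each side, against 23.9% of protein-coding genes, and because the genes were chosen for their peaks nothing is read from that difference. Among the longer lists, the widened genes held 138 of 30000 pooled summits, 141 of 30000 in replicate 1 and 134 of 30000 in replicate 2. A summit is the base at which the authors' caller placed the top of a peak, and every count below is of summits.

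The samples were whole Drosophila melanogaster embryos of mixed sex, 2 to 6 h old by their source description, of a transgenic line, strain fd102C-GFP, in which fd102C carries GFP at its C-terminal end. They form 1 group of 2 biological replicates, with no other genotype or treatment, so no contrast between conditions could be made. The description field calls both an input control while title, assay and antibody fields name transcription factor ChIP-seq and fd102C, and they were treated as ChIP. Which promoter drives the tagged protein, and whether an untagged one is made beside it, was not stated, and whole embryos do not show in which cells a site was bound. Peak signal is the authors' own value, of a scale they do not state, and serves only to describe peaks and order them inside 1 list. No read counts are in the lists, so the depth behind each value is unknown.

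Fork head proteins bind DNA through a winged helix domain, and their usual site is an A- and T-rich heptamer. sbb (scribbler, also called brakeless) encodes a nuclear corepressor used by early segmentation factors and, later, in wing and eye development. jing encodes a C2H2 zinc finger protein needed in the tracheal system, the ventral midline and migrating border cells, whose mammalian relative AEBP2 is a cofactor of Polycomb repressive complex 2. zfh2 encodes a protein with both zinc fingers and homeodomains, known in the nervous system and the proximal wing and leg, and lies on the small, repeat-rich chromosome 4, as does fd102C itself.

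The zfh2 summits are shown as sequence first, because the strongest of them outranked nearly every other peak and lay outside the gene. The sequences run 5′ to 3′ on the plus strand of the RefSeq genome for dm6 (Release 6), with capitals marking matches, on either strand, to the fork head consensus, which is TAAA with A or G before it and CA or TA after it. The first spans the thresholded summit at chr4:497797-497997. The second, from chr4:501749-501809, is the stretch just before the gene's first exon, beside the summit of rank 2296. The last pair, chr4:509930-510130 and chr4:506737-506937, come from the second intron and hold the next highest summits, ranks 3000 and 5360.
zfh2 upstream summit: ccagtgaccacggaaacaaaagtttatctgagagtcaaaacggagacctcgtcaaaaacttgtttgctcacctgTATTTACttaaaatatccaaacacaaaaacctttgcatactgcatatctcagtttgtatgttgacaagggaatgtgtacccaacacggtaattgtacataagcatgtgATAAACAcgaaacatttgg
zfh2 promoter: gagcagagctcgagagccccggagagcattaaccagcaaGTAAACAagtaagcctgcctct
zfh2 intron, rank 3000: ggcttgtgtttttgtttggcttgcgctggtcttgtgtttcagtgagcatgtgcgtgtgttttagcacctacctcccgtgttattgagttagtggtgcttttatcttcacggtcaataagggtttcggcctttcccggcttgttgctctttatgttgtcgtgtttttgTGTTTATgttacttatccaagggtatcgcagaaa
zfh2 intron, rank 5360: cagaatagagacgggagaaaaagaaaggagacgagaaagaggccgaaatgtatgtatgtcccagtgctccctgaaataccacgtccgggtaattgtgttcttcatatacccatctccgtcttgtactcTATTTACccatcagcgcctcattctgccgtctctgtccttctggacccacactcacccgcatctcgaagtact

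At zfh2 (FBgn0004607), on the plus strand of chromosome 4 from 501810 to 540874, 1 thresholded summit was found. It lay at 497897, in a peak from 497737 to 498069, 3913 bp upstream of the transcription start site (TSS) that all 3 transcripts share. Its signal was 1380 in the pooled list, 833 in replicate 1 and 556 in replicate 2, and in each of the 3 lists it ranked 4. The replicate summits fell 0 and 16 bp from the pooled one. No other peak of chromosome 4 came near it: the second highest of the 15 thresholded summits there had a signal of 299, so that the zfh2 summit was 4.61 times higher within this list.

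The site was intergenic. Asator, a kinase gene transcribed away from zfh2, begins 8903 bp to its left at 488994, and zfh2 begins 3913 bp to its right, which leaves 12815 bp between the genes. The nearest other thresholded summits, at 488873 and 487817, lay 9024 and 10080 bp away near the start of Asator, with signals of 143 and 141. To the right, no thresholded summit was found in zfh2 or in the 267 kb (266678 bp) beyond its end. The closest annotated transposable element, of the INE-1 family, was 325 bp from the summit, which itself lay in none.

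The fork head match nearest to the zfh2 summit was a GTAAATA on the minus strand centred 23 bp to its left, the first capitals of the upstream sequence. An ATAAACA on the plus strand was centred 85 bp to its right. The same window of 201 bp held a CACCTG, the form of E-box bound by Snail-type factors, 29 bp to the left, and a CACATG, a Twist-type E-box, 79 bp to the right on the minus strand.

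Below the threshold, zfh2 had a modest summit at its promoter. The summit at 501849, 39 bp past the TSS in the first exon, had a signal of 119 and rank 2296 in the pooled list. The nearest summits of the replicates had signals of 71.4 (rank 2250) and 49.2 (rank 2767), 40 and 55 bp from the TSS. The threshold lay above it, between signals of 125.667 and 125.658 at rank 2031. Its fork head match, GTAAACA, lies in the 61 bases of promoter sequence shown. The intronic summits at 510030 (signal 103) and 506837 (signal 78.6) each had a match as well and were seen in both replicates within 100 bp.

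The remaining zfh2 summits were weak. Of the 17 pooled summits, 16 were under the threshold, with a median signal of 51.8, and 6 of these 16 (37.5%) were matched within 100 bp in each replicate, against 28.2% of all 27969 pooled peaks under the threshold. By position, 6 of the 17 were in intron 2, 3 in intron 3, 1 each in introns 4 and 6, 2 in exons 1 and 7, and 4 upstream of the gene. At 34.6 per 100 kb the pooled summits were about as dense as over the whole of chromosome 4, with 36.6, and denser than over all arms, with 22.4. Transposable elements, 28 of them, made up 14.1% of the widened span, and 2 of the 17 pooled summits and 4 of 18 in each replicate lay in one, against 14.2% of the pooled summits of chromosome 4.

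**Figure D1:**
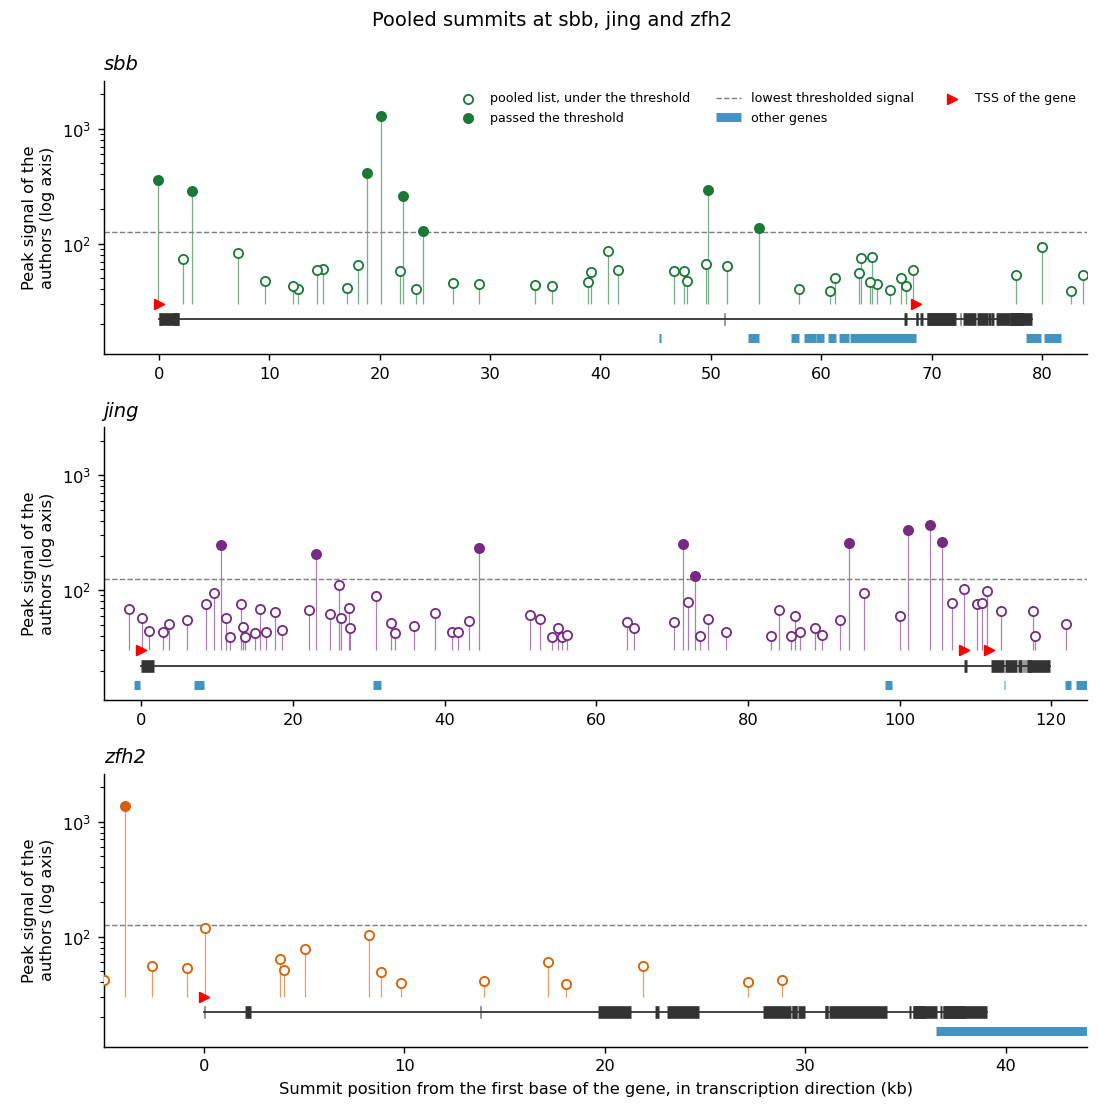
Signal of every pooled summit (log axis) against its distance in kb from the first base of the gene, in transcription direction, at sbb, jing and zfh2. Filled points passed the threshold (8, 9 and 1), open ones did not (40, 64 and 16), the dashed line is the lowest thresholded signal of 125.667, dark boxes are exons, blue boxes other genes and red marks the TSSs; the sbb and jing points stand along the long intron, while the 1 filled zfh2 point lies 3913 bp before the gene.

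At sbb (FBgn0285917), on the minus strand of 2R from 18278198 to 18357296, 8 thresholded summits were found, 1 at the upstream promoter and 7 in 1 intron. The gene has 7 transcripts, of which 5 start at 18357296 and 2 at 18288761. The intron, intron 2 of the transcript sbb-RG, is 65.6 kb long, or 83% of the gene, and held 41 of the 48 pooled summits.

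The dominant sbb summit, at 18337190, lay 20.1 kb into the gene. It had a signal of 1288 in the pooled list, 677 in replicate 1 and 625 in replicate 2, which gave ranks 5, 6 and 3. Its window had 3 matches of GTAAATA, centred 6, 11 and 28 bp to the right of the summit. Those at 6 bp (plus strand) and 11 bp (minus strand) overlapped, and that at 28 bp was on the minus strand. At the 3 genes 2 of the 18 summits, or 11.1%, had 3 or more fork head matches, against 4.09% of all thresholded summits. Overlapping matches were counted separately in both shares. Its GC content, 45.3%, was the highest of the 8, whose median was 33.6%.

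Around it stood 3 further thresholded summits, so that 4 fell within 5108 bp. Along the intron from the upstream side they came at 18338482 (signal 414, rank 163), 18337190, 18335216 (signal 261, rank 500) and 18333374 (signal 130, rank 1896). The steps between them were 1292, 1974 and 1842 bp. Ordered by length, this was the 19th tightest of 2013 runs of 4 consecutive thresholded summits on the arms. It is the tightest such run of a gene chosen for its number of summits, so nothing is read from that place. The members of the run differed in how evenly the replicates ranked them: 18338482 was at 148 in replicate 1 and 186 in replicate 2, 18335216 at 500 and 669, and 18333374 at 1357 and 3989.

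The promoter summit, at 18357391, was 95 bp upstream of the TSS that 5 transcripts use. Its signal was 357 pooled, 223 in replicate 1 and 140 in replicate 2, with ranks 234, 187 and 330. At 18354271, 3.0 kb into the gene, the next summit had signals of 286, 149 and 136 in the same lists and ranks 410, 496 and 349. Both carried a homeodomain core, TAATTA, centred 5 bp left of the promoter summit and 10 bp right of the intronic one, and a BEAF-32 core, CGATA. They differed in the fork head consensus, which was not in the promoter window and occurred 3 times at 18354271, including 2 matches of GTAAACA, 22 bp left and 2 bp right of the summit.

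The remaining sbb summits lay toward the distal end of the intron. Between 18307582 and the run was a gap of 25792 bp, the widest at sbb. The summit at 18307582 had a signal of 293 (rank 380) in the pooled list, 176 (rank 339) in replicate 1 and 111 (rank 540) in replicate 2. The summit at 18302937 had a signal of 138 (rank 1694), 71.6 (rank 2233) and 66.3 (rank 1470), and was the closest to a nested gene, 8 bp past the 3′ end of CG14505 and 1040 bp from its TSS.

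Within sbb lie 8 nested protein-coding genes, namely CG14502, CG18536, CG18537, CG18538, CG18539, CG18540, CG14505 and Tango8. No thresholded summit was inside them or within 1 kb of their TSSs. Of the 48 pooled summits, 12 were, with 9 inside CG14502 and 2 inside CG18537, which leaves 36 apart from nested genes. Replicate 1 had 33 of 43 and replicate 2 had 41 of 49 summits apart from them. CG14502 overlaps the downstream sbb TSS at 18288761, where the nearest pooled summit, 241 bp away, had a signal of 59.4 and rank 10526. At its 3′ end sbb overlaps pen-2, a gamma-secretase subunit gene, and the flank holds Ote, a lamina protein gene. The highest summit under the threshold in the widened sbb, at 18277331 with a signal of 93.5 and rank 3634, fell between these 2 genes. It lay outside sbb, 108 bp from the TSS of pen-2. Inside sbb the highest under the threshold was at 18316618, with a signal of 86.8 and rank 4259.

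At jing (FBgn0086655), on the plus strand of 2R from 6502006 to 6621792, all 9 thresholded summits lay in the first intron of jing-RI, which at 110 kb takes up 92.2% of the gene. That intron also held 66 of the 73 pooled summits. Of the 4 jing transcripts, 1 starts at 6502006, 2 at 6610487 and 1 at 6613768. The later 2 TSSs lie beyond all 9 summits, which are thus upstream of the transcripts that start there. The highest jing summit, at 6606052, had a signal of 366 in the pooled list, 203 in replicate 1 and 168 in replicate 2, with ranks 219, 239 and 196. No jing summit approached the strongest ones of sbb and zfh2: signals went from 132 to 366, a narrower range than at sbb, where they went from 130 to 1288.

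Toward the 3′ end of the intron, 3 summits formed a run of 4506 bp. They were at 6603160 (signal 333, rank 288), 6606052 and 6607666 (signal 263, rank 489), the last 2821 bp before the internal TSS at 6610487 that 2 transcripts use. This was the 76th tightest of 2019 runs of 3 consecutive summits. As at sbb, it is the tightest such run of a gene chosen for its summits, and nothing is read from its place. In the replicates, 6603160 ranked 233 and 334, and 6607666 ranked 424 and 625, so all 3 were high in both. The peaks at 6603160 and 6606052 were narrow, 94 and 148 bp, where 81.1% of thresholded peaks had a width of 360 bp and 12.9% were under 200 bp.

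Within the run, the sequence matches differed from summit to summit. At 6606052 there were 4 overlapping or neighbouring GAGAGAG strings, the core bound by GAGA factor, centred 12 bp left of, at, and 2 and 38 bp right of the summit on the minus strand. It was the 1 summit of 18 with that core, which 4.97% of all thresholded windows hold. The fork head consensus was in neither 6606052 nor 6603160, and in 6607666 only as a GTAAACA 89 bp to the right; its absence was shared with 2 other jing and 3 sbb summits.

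In the middle of the intron the summits at 6573378 and 6575037 formed a pair 1659 bp apart. The first had a signal of 252 (rank 536) in the pooled list, 191 (rank 278) in replicate 1 and 75.7 (rank 1152) in replicate 2. The second had a signal of 132 (rank 1859), 92.6 (rank 1345) and 50.8 (rank 2575). Both thus ranked lower in replicate 2, and both carried 1 fork head match, an ATAAATA and a GTAAATA.

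The other 4 jing summits stood alone, with no other thresholded summit within 5 kb. At 6512475 the pooled signal was 247 (rank 566) and the ranks in replicates 1 and 2 were 831 and 394. The summit at 6524992 had a signal of 205 (rank 803) and ranks of 1116 and 664, and that at 6546501 a signal of 231 (rank 632) and ranks of 900 and 455. These 3 in the 5′ part of the intron, 10.5, 23.0 and 44.5 kb from the gene start, all ranked higher in replicate 2, the reverse of the pair in the middle. At 6595308, 93.3 kb in, the signal was 255 (rank 524) and the ranks were 675 and 448. Its window held a GATA factor core (TGATAAG) and no fork head form. It was the 1 summit of 18 with a GATA factor core, a form of which 8.27% of all thresholded windows hold. At 6524992 the consensus occurred 2 times as ATAAACA and at 6546501 as GTAAACA and ATAAACA, the nearest being 7 and 10 bp from the summit.

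None of the 3 TSSs of jing had a thresholded summit within 1 kb. Near the first, at 6502006, the closest pooled summit was 42 bp away with a signal of 57.6 and rank 11356. At 6610487 it was 49 bp away with a signal of 103, and the ranks were 2983 pooled, 4874 in replicate 1 and 2217 in replicate 2. At 6613768 it was 217 bp away with a signal of 97.5 and rank 3356, and here the replicates parted, with rank 10750 in replicate 1 and, 141 bp from the TSS, rank 1737 in replicate 2.

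The genes nested in jing were the protein-coding CG15233 and the noncoding lncRNA:CR45127, lncRNA:CR43905 and sisRNA:CR46361. No thresholded summit lay in or within 1 kb of the TSS of any of these 4. Of the 73 pooled summits 3 did, 1 of them inside lncRNA:CR43905, and the numbers were 7 of 80 in replicate 1 and 3 of 67 in replicate 2. In the flanks lie lncRNA:CR46075 before the gene, and CG33919 and Vha16-1, which encodes a proton pump subunit, after it. zfh2 holds no nested gene and overlaps only Tdg, a DNA glycosylase gene, at its 3′ end, and no thresholded summit fell in that overlap.

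In position, the summits of the 3 genes differed from the rest of the list, given here as a description with no test. In an intron lay 16 of 18 (88.9%), against 29.0% of all thresholded summits. Intronic here means inside the span of a gene, outside exons and more than 1 kb from any TSS. The jing summits therefore count as intronic although most jing transcripts start after them. Within 1 kb of a TSS of any gene lay 1 of 18 (5.56%), against 53.3%, and 1 was intergenic. Another thresholded summit within 5 kb was present for 13 of 18 (72.2%), against 37.1%: for all 8 at sbb, 5 of 9 at jing and not at zfh2. Since sbb and jing were chosen with their number of summits in view and have long introns, close spacing and an intronic place go with that choice.

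In signal, the 18 summits had a median of 262, against 181 for all thresholded peaks. Of the 18, 15 were in the upper 1016 of the 2031 ranks. By gene, 6 of 8 at sbb and 8 of 9 at jing were in that upper part. Narrower than 360 bp were 4 of the 18 peaks, and 18.8% of all thresholded peaks. The lowest signals were at sbb 18302937, jing 6575037 and sbb 18333374. The lowest summits inside the threshold were a jing summit of signal 132 (rank 1859) and an sbb summit of signal 130 (rank 1896). The highest outside it were the zfh2 promoter summit of 119 (rank 2296) and a jing summit of 111 at 6528100 (rank 2627). For sbb it was a summit of 93.5 (rank 3634), in the flank beside pen-2 and well below the boundary at rank 2031. Of the pooled summits, 16.7% passed the threshold at sbb, 12.3% at jing and 5.88% at zfh2, against 6.77% of all pooled peaks. The genes were chosen on their peak values, so nothing is read from these signals, ranks or shares beside those of all peaks.

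**Figure D2:**
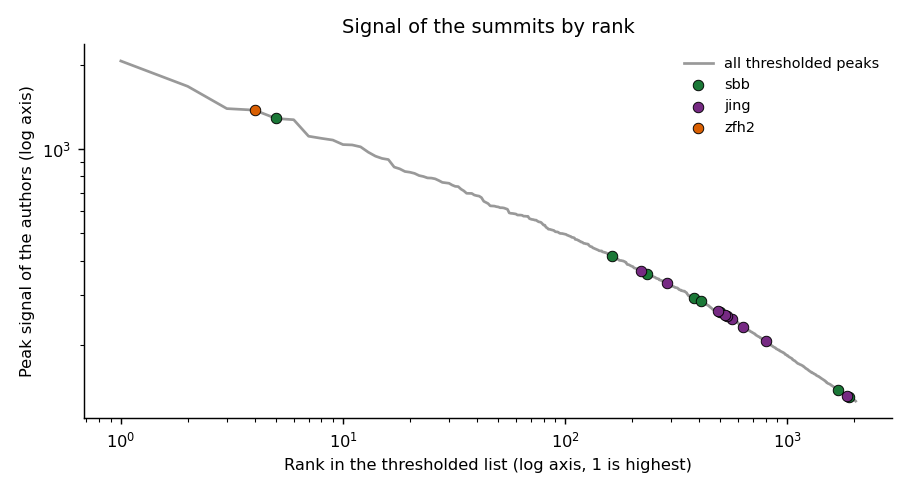
Peak signal against rank in the thresholded list, both on log axes, with the 18 summits at sbb, jing and zfh2 on the line of all 2031 peaks. The highest zfh2 and sbb summits, with signals of 1380 and 1288, stand at ranks 4 and 5, and the others lie between ranks 163 and 1896.

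All 18 summits were matched by a summit of each replicate within 100 bp, as were 1941 of 2031 (95.6%) in the whole list, which was itself thresholded for reproducibility. The median distance was 6.5 bp to the replicate 1 summit and 19 bp to that of replicate 2, and the largest was 100 bp, at sbb 18335216. The rank was higher in replicate 1 for 9 summits, higher in replicate 2 for 8 and equal for the zfh2 summit. Among the highest 2031 peaks of each replicate were 17 in replicate 1, without sbb 18302937, and 16 in replicate 2, without sbb 18333374 and jing 6575037. The 3 exceptions were the same 3 summits with the lowest pooled signal. The like share over all thresholded summits is not given here, and the genes were chosen for their peaks, so nothing is read from these counts.

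**Figure D3:**
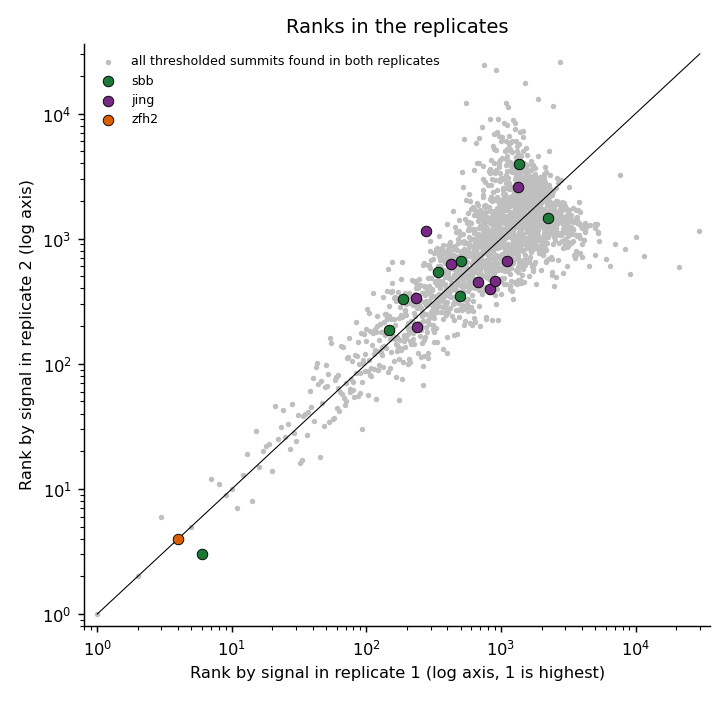
Rank of each thresholded summit in replicate 1 and in replicate 2, both on log axes with 1 as the highest signal; grey points are all 1941 summits matched in both within 100 bp, and the line marks equal rank. The strongest zfh2 summit has rank 4 in both, the strongest sbb summit ranks 6 and 3, and jing 6573378 is among those far from the line, with ranks 278 and 1152.

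Under the threshold the 3 genes had 40, 64 and 16 pooled summits for sbb, jing and zfh2. Their median signals were 51.8, 54.4 and 51.8, against 50.3 for all pooled peaks under the threshold. A summit within 100 bp in both replicates was found for 9 of 40 (22.5%) at sbb, 16 of 64 (25%) at jing and 6 of 16 (37.5%) at zfh2, against 28.2%. The weaker summits were thus near the list as a whole in these measures. Up to rank 6000 there were 4 more summits at sbb, 12 at jing and 3 at zfh2. The pooled list is limited to 30000 peaks and holds background together with bound sites, so its density of 53.9 and 56.2 per 100 kb at sbb and jing, against 22.4 over the arms, is a count of listed peaks.

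The fork head consensus was found within 100 bp of 11 of the 18 summits (61.1%), against 43.1% of all thresholded summits and 29.4% of pooled summits under the threshold. By gene it was 5 of 8 at sbb, 5 of 9 at jing and 1 of 1 at zfh2. The 18 belong to genes chosen for their peaks and had a higher median signal than the list, 262 against 181. Of them 5.56% lay within 1 kb of a TSS, against 53.3%. How far signal or position goes with the motif share was not tested. The strict GTAAACA was present at 3 of 18, against 9.90%, and a loose form (purine, pyrimidine, A or C, AA, pyrimidine, A) at 16 of 18, against 69.7%. Of the 11, 5 had a match centred within 30 bp of the summit, among them the rank 4 and rank 5 summits. Over all thresholded summits with a match it was 424 of 875. The median distance of the nearest match was 41 bp at the 11, against 32 bp over those 875. The genes' 120 pooled summits under the threshold were not alike. The consensus was at 9 of 16 (56.3%) at zfh2, 12 of 40 (30%) at sbb and 9 of 64 (14.1%) at jing. Together this was 30 of 120 (25%), against the 29.4% of all pooled summits under the threshold.

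**Figure D4:**
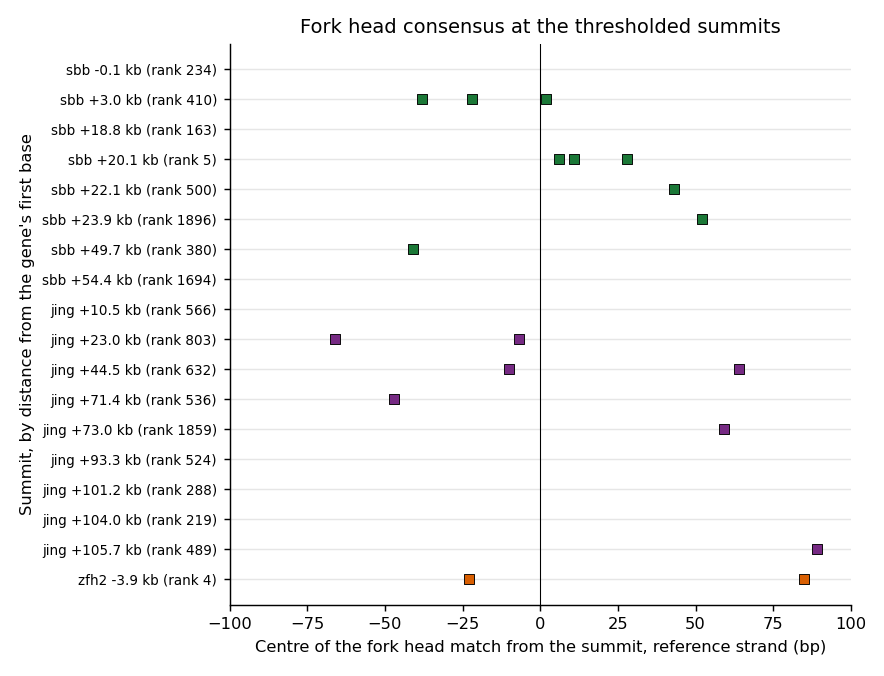
Centre of each fork head match in bp from the summit, on the reference strand, for the 18 thresholded summits of sbb, jing and zfh2, named by distance from the gene start and by rank. Squares are matches; 11 summits have at least 1, the rank 5 sbb summit has 3 within 28 bp and the rank 4 zfh2 summit has matches 23 bp left and 85 bp right.

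Other motifs were less frequent. BEAF-32 (CGATA) was matched at 2 of 18, both at sbb, against 27.2% of thresholded summits, and the homeodomain core at the same 2, against 14.0%. A CTCF core, AGGGGGC, was found 71 bp left of sbb 18335216, where 9.01% of the thresholded windows hold a form of it. CACATG occurred at 3 of 18 summits, 1 at each gene, against 8.86%. CAGCTG was found at jing 6606052 and CACCTG at zfh2, against 9.40% and 5.96%. No match to the Zelda (CAGGTAG), DREF or M1BP cores was in the 18 windows, where 1.58%, 2.90% and 1.53% of thresholded windows had one.

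The counts at sbb and jing, for which the genes were chosen, are set here beside those of genes of like length as a description, and nothing is read from their place among them. In all, 4 protein-coding genes held more thresholded summits than sbb and 2 more than jing, whereas 775 held more than zfh2. Of 538 other genes whose widened span was between 0.5 and 2 times that of sbb, 5 (0.929%) had as many or more, and the median was 0. Of 257 for jing, 2 (0.778%) had as many or more, with a median of 1. For zfh2, 536 of 1284 (41.7%) had at least its 1 summit. In the pooled list sbb held 48, jing 73 and zfh2 17 summits, against medians of 13, 16 and 9 for their genes of like length.

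**Figure D5:**
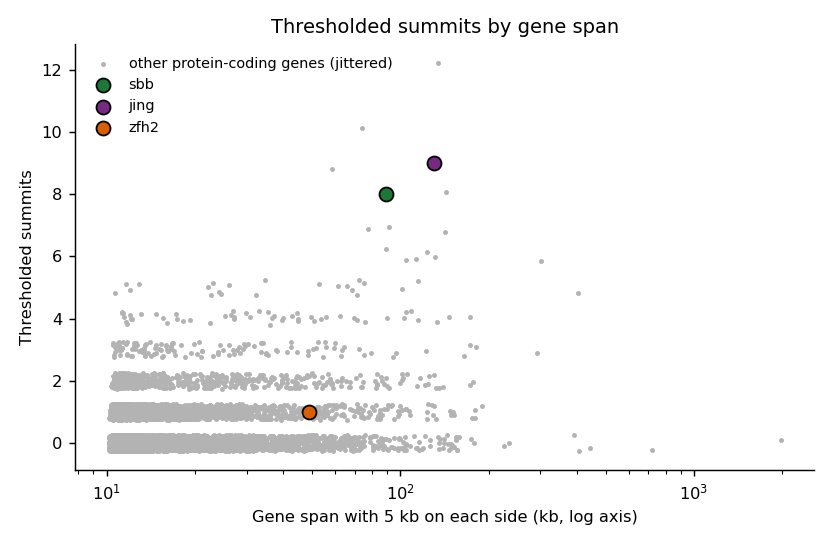
Thresholded summits against gene span widened by 5 kb on each side (kb, log axis) for all 13945 protein-coding genes; grey points are spread a little vertically so that they can be told apart. sbb (8 summits in 89.1 kb) and jing (9 in 130 kb) lie near the upper edge of the points, and zfh2 (1 in 49.1 kb) lies in the body of them.

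By thresholded summits per 100 kb of widened span, among genes of like length with at least 5 such summits, the genes nearest to sbb (8.98) were px (plexus), which encodes a nuclear factor of wing veins, with 9.0, CG1677 with 8.91 and Btk, a tyrosine kinase gene, with 9.49. Nearest to jing (6.93) were CG46458 with 6.93, CG12535 with 7.04 and pros, a homeodomain gene of neural fate, with 6.73. The comparison was over 22 and 19 candidate genes. For zfh2, with 2.04 per 100 kb, the nearest of 16 candidates were rdx with 6.67, pros with 6.73 and CG46458 with 6.93, all denser. That gap follows from the minimum of 5 summits, which zfh2 with 1 does not reach; 2561 other protein-coding genes also held exactly 1.

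A list of 46 genes of C2H2 and zinc finger homeodomain proteins was chosen with earlier results of these data known, and is not the whole family. Of the 46, 21 (45.7%) held a thresholded summit in the widened gene, against 23.9% of all protein-coding genes. Without sbb, jing and zfh2 it was 18 of the other 43 (41.9%). Only 8 of the 46 had a summit within 1 kb of their own TSS. The median widened span of the 46 was 19.2 kb, against 12.2 kb. After zfh2 and sbb, the highest signals were 927 (rank 15) at cbt, a gene of dorsal closure, and 366 at jing. Without a summit were br, the ecdysone response gene broad, and crol, among others.

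Of 11 genes listed as working with or under sbb, a relation not tested here, 6 (54.5%) had a summit in the widened gene. Over all genes it was 23.9%. The median widened span was 18.2 kb in this list, against 12.2 kb. Only 1 of the 11, gro, had a summit within 1 kb of its own TSS. The other summits may lie nearer to a neighbouring gene. Gug, the Atrophin corepressor that binds Brakeless, had 1 with a signal of 345, hh, a Hedgehog ligand gene, had 2 with a highest signal of 320, and tkv, a Dpp receptor gene, had 1 with 276. The corepressor gene gro had 2, with a highest signal of 214. CtBP, which encodes another corepressor, and the gap gene Kr had none.

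Listed with jing were 14 genes of the tracheal and midline programme, border cells or Polycomb repressive complex 2. That they work with jing was not tested. Of the 14, 6 (42.9%) had a summit in the widened gene, compared with 23.9% over all genes. Their median widened span was 14.7 kb, against 12.2 kb, and 3 of the 14 had a summit within 1 kb of their own TSS. Caf1-55, a histone-binding subunit of Polycomb repressive complex 2, had 1 with a signal of 1020 and rank 12, not within 1 kb of a Caf1-55 TSS. The catalytic subunit gene E(z) had 1 with a signal of 198, while Jarid2 and Pcl, which encode accessory proteins of that complex, had none. slbo, the C/EBP gene of border cells, had 2 with a highest signal of 239, and sim, the master gene of the ventral midline, had 3 with a highest signal of 219.

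Listed with zfh2 were 14 genes of proximal wing and leg patterning or the neural lineage. That they work with zfh2 was not tested. Of the 14, 8 (57.1%) had a summit in the widened gene, compared with 23.9% over all genes. Their median widened span was 36.8 kb, against 12.2 kb, so more sequence was searched per gene. A summit within 1 kb of their own TSS was present for 3 of the 14. The highest signal was 451 at grh, an epidermal transcription factor gene with 2 summits. hth, a homeodomain gene of proximal appendages, had 7 with a highest signal of 362, zfh1, the related zinc finger homeodomain gene, had 2 with 318, and N, the Notch receptor gene, had 2 with 225. The neuroblast timing genes cas and pdm2 had none. Of 14 regulator genes on chromosome 4, 8 (57.1%) held a summit, against the same 23.9%. Without zfh2, which was chosen for its peak, 7 of 13 (53.8%) did. ci and PlexB were counted through the same summit, of signal 140 and rank 1654. The median widened span was 24.3 kb, against 12.2 kb, and 2 of the 14 had a summit within 1 kb of their own TSS. Thresholded summits were sparser on chromosome 4, at 1.11 per 100 kb, than over all arms, at 1.52. Apart from zfh2 the genes with a summit were led by pan, the TCF gene of Wnt signalling, with a signal of 240. Then came sv, a Pax gene, with 206, and Sox102F with 202, all far below zfh2 at 1380. Actbeta, an activin ligand gene, and Crk, an adaptor gene, had none.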

How the data were processed

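ChIP-seq peak lists of fd102C-GFP embryos, 1 group of 2 biological replicates numbered by the labels, were used. Per the deposited notes, the authors' peak calls were made for single replicates and for the 2 pooled, with a control that is not analysed here. These lists hold 30000 peaks each, and the thresholded list holds the 2031 pooled peaks of highest signal with unchanged values. The deposited signal is a score per peak of unstated scale. Ties in rank were broken by the deposited −log10 q-value. The deposited summit offset gave the summit, counted from 1. The aligner, the caller and the threshold were not given in the sources used here. Without read counts, depth and precision per sample are unknown, and no interval was computed.

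The labels name dm6, and coordinates were joined to Ensembl release 115 on the same assembly, where 99.5% of forward-strand start codons read ATG in the RefSeq sequence. A summit belonged to a gene when inside its span widened by 5 kb. Summits of 2 lists matched within 100 bp. Motifs were searched in the 201 bp centred on a summit, on both strands. A gene of like length had 0.5 to 2 times the widened span. No significance test was run. Counting and matching were tested on simulated data, with Python 3.11.15, numpy 2.4.6 and pandas 2.3.3. Named genes were the 3 genes, all genes in their widened spans, the 3 most alike in summits per kb, and in each list up to 4 bound genes by signal and up to 2 unbound ones by alphabet. The genes and lists were chosen with earlier results of these data known. Alternatives were other widenings, TSS windows, matching distances, motif forms and windows, the upper part of the thresholded list, and each replicate's highest 2031 peaks alone.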

Additional observations from a re-analysis of the deposited data

How the results depend on the processing

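Over 11 counts and 52 alternative settings, 45 stayed within 1.5 times the value reported and 7 did not. The zfh2 count fell to 0 with no widening or with 2 kb, and to 0 with 1 kb, a setting added after seeing the data, because its 1 summit lies 3913 bp before the gene. With 10 kb the counts were 8, 9 and 1 at sbb, jing and zfh2. When 1 replicate was left out and the highest 2031 peaks of the other were used, the counts were 7 to 7 at sbb, 9 to 9 at jing and 1 to 1 at zfh2, and without replicate 1 a summit within 1 kb of a jing TSS entered (1, against 0). Matching replicate summits within 50 bp left 5 of 8 at sbb and 6 of 9 at jing. The fork head consensus was at 3 of 18 summits as strict GTAAACA, 8 with a window of 50 bp, 13 with 250 bp, and 9 to 11 of 17 in single replicates. Of the C2H2 and zinc finger homeodomain genes, 10 of 46 held a summit with no widening, when 5.92% of all genes did, 16 with 2 kb (16.1% of all genes), 29 with 10 kb (34.3%), and 22 to 23 in single replicates. No paired analysis was possible because the samples form 1 group and no test was run. Depth is unknown, so an absent peak is no more than a peak not listed, and the lists cannot show binding weaker than their lowest entries.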
